A study of Homo sapiens with 9 samples.

Results

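NB4 cells treated for 24 h with the LSD1 inhibitor MC_2580 together with retinoic acid (RA) at 0.01 uM, called the combination here, were compared with NB4 cells kept for 24 h in the vehicle DMSO. The members are the values of these 2 libraries, 2 of the 9 in the series, at the loci of the treatment table. Of these 35856 loci, 35142 were kept and 714 with a failed status in the pair that names both libraries were dropped. The value of a library is the largest listed for it over the pairs without a failed status. For the combination, 41 values at 0 in this pair were above 0 in another, 0 of them at the genes below. The results below are given for the 10126 protein-coding genes with a single locus that reached at least 1 FPKM in 1 of the 2 libraries. FPKM counts fragments relative to transcript length and to the number of fragments mapped in the library.

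NB4 is an established human acute promyelocytic leukaemia line. Its PML-RARA fusion protein binds retinoic acid receptor sites and holds target genes in a repressed state, and retinoic acid releases this block so that the cells mature along the granulocyte path. LSD1, encoded by KDM1A, removes methyl marks from histone tails within repressor complexes built on CoREST proteins, and the zinc finger factors GFI1 and GFI1B bring it to DNA in blood cells. Maturing neutrophils gain the enzyme complex that makes reactive oxygen, surface receptors for bacterial peptides and complement, granule proteins and calcium-binding S100 proteins, and they leave the cell cycle.

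The series holds 5 treatment libraries of NB4 cells, each treated for 24 h and each the only library of its condition: the combination, MC_2580 alone, RA at 0.01 uM, RA at 1 uM and DMSO. The labels give no dose for MC_2580. A second, separate table holds untreated NB4 cells, with 2 libraries in which LSD1 was knocked out (KO) and 2 of the wild type (WT). The labels do not say how the knockout was made, whether it is a single clone, or whether libraries of a genotype came from separate cultures.

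With 1 library a side there is no replicate of either condition, so no test was made and no error can be given for a single difference. Genes are called higher or lower by size alone, at 2-fold on FPKM + 1, which understates the fold of genes near 0. A gene under 1 FPKM in 1 library is measured only through the library where it is higher. Counts and medians of measured members therefore lean away from 0. The spread between like libraries was read from KO 1 against KO 2 and from WT 1 against WT 2. These may not be independent readings. For ribosome biogenesis genes, for example, the median log2 differences were -0.64 between the KO libraries and -0.60 between the WT libraries. At least 1 FPKM was reached by 13270 loci in the combination and 13051 in DMSO, and the 10 highest loci held 65.8% and 54.2% of the FPKM sum. The sources used here give no read totals. Judged by the steps between low values, 1 FPKM stood for about 0.763 times as many reads in the combination library as in the DMSO library. This is the commonest ratio over 1454 loci with few reads, and 15.1% of them lay within 0.03 log2 of it. By this rough estimate the lowest values of the combination rest on fewer reads. The median log2 difference over all 10126 genes was -0.02. In bulk RNA, more cells of a type and more RNA per cell cannot be told apart.

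In the combination, 952 genes were at least 2-fold higher (9.4% of those measured) and 348 were at least 2-fold lower (3.44%). The same rule, in either direction, marked 3.45% of genes between KO 1 and KO 2 and 3.8% between WT 1 and WT 2, against 12.8% between the combination and DMSO. The higher genes alone exceeded the share marked between like libraries, while the lower genes alone came to about the share that like libraries gave in both directions together. At 4-fold the counts were 354 higher (3.5%) and 38 lower (0.375%). At 8-fold they were 145 and 3, and at 16-fold 70 and 0. Over the 10098 genes also valued in the knockout table, 38 were 4-fold lower in the combination, while 14 differed 4-fold in either direction between KO 1 and KO 2 and 14 between WT 1 and WT 2. Set against the same DMSO library, the other treatments gave 74 genes higher (0.758%) and 2 lower (0.0205%) with MC_2580 alone. RA 0.01 uM gave 476 higher (4.81%) and 280 lower (2.83%), and RA 1 uM gave 644 higher (6.49%) and 272 lower (2.74%).

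**Figure D1:**
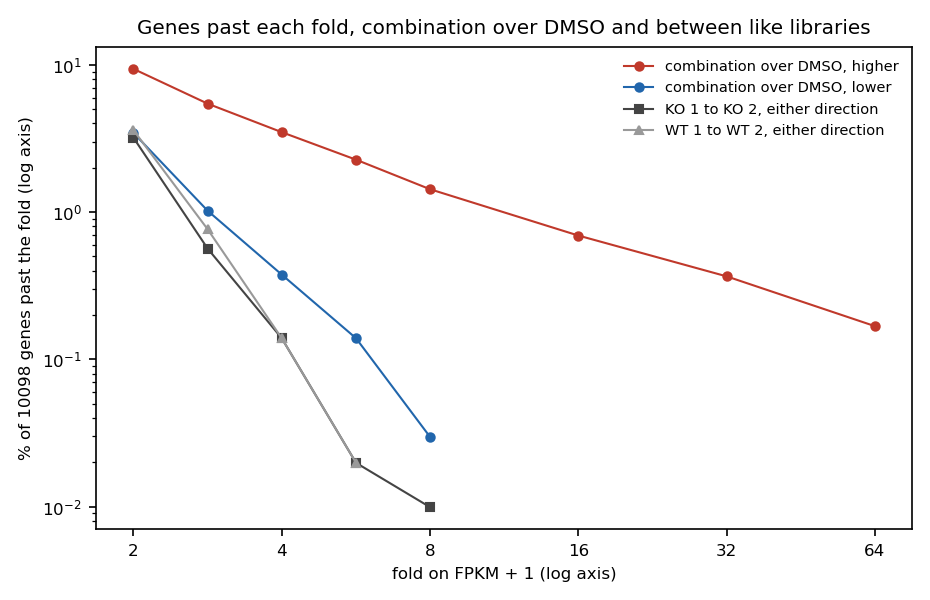
Percentage of 10098 protein-coding genes (y axis, log scale) past each fold on FPKM + 1 (x axis, log scale) for the combination over DMSO, higher and lower, and between the 2 KO and the 2 WT libraries in either direction. Genes higher in the combination reach 64-fold, where 0.168% remain, while no like-library pair has a gene past 8-fold other than 1 gene between KO 1 and KO 2.

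Some of the higher genes were silent or nearly so in DMSO. Under 1 FPKM in DMSO and at least 10 FPKM in the combination were 72 genes, and the reverse was seen for 1, the endothelial transcription factor SOX18 (0.671 FPKM in the combination, 10.4 FPKM in DMSO). The higher genes together held 14.7% of the protein-coding FPKM in the combination, against 3.33% in DMSO. The lower genes held 1.25% in the combination, against 3.63% in DMSO. The share of higher genes was 10.2% among genes whose larger value was 1 to 5 FPKM and 14.7% among those at 100 FPKM or more, so the calls were not limited to weakly expressed genes. Of the 948 higher genes valued in the knockout table, 27 (2.85%) had a difference no larger than that between KO 1 and KO 2 or between WT 1 and WT 2, and so did 16 of 348 lower genes (4.6%). The authors' deposited table calls 938 of the 10126 genes significant in this pair (9.26%), of which 704 were 2-fold higher here, 159 were 2-fold lower and 75 lay within 2-fold.

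**Figure D2:**
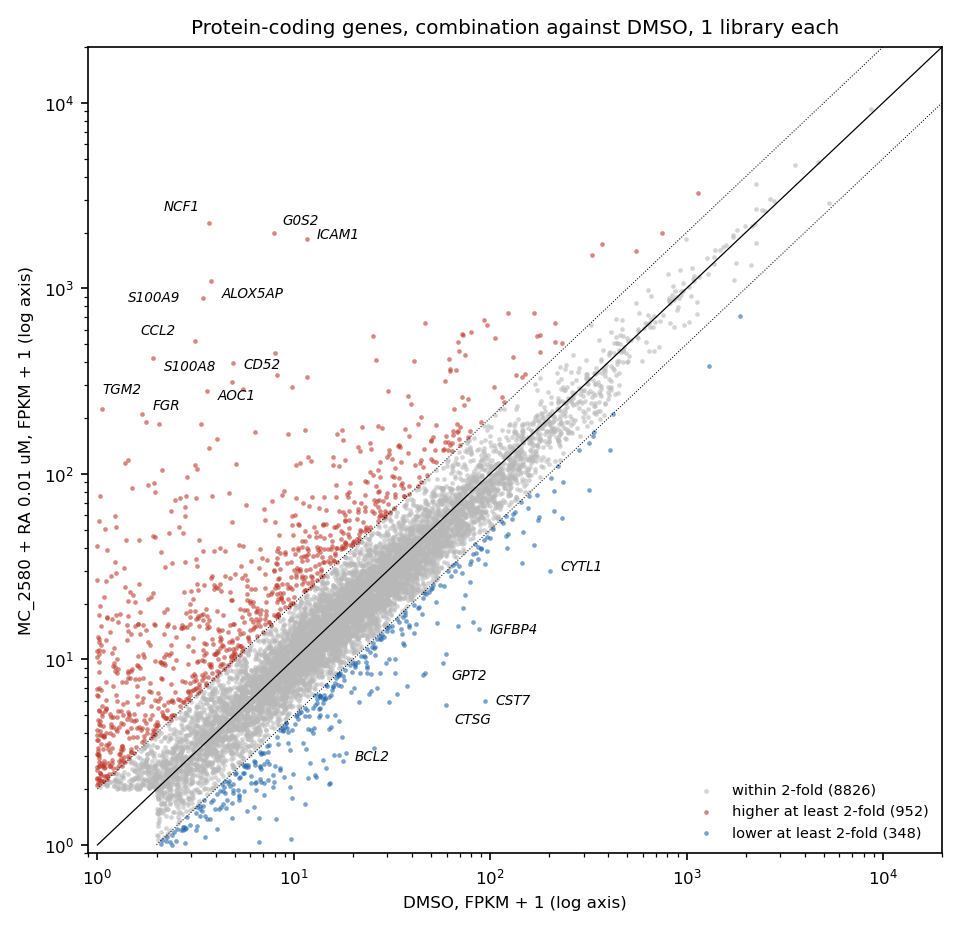
FPKM + 1 of each of 10126 protein-coding genes in the combination library (y axis, log scale) against the DMSO library (x axis, log scale); dotted lines mark 2-fold. The 952 higher genes fan out to the left, with NCF1 at 2245 FPKM against 2.72 FPKM, and the 348 lower genes lie closer to the line.

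The 15 genes with the largest difference on FPKM + 1 were, in order, NCF1, ALOX5AP, S100A9, G0S2, S100A8, TGM2, CCL2, ICAM1, FGR, BPI, PADI2, PADI4, ASB2, CD52 and AOC1. NCF1, the p47-phox organiser of the NADPH oxidase, had 2245 FPKM in the combination, 5.48 in MC_2580, 929 in RA 0.01 uM, 1305 in RA 1 uM and 2.72 in DMSO, a log2 difference of 9.24 against DMSO. It ranked 12th by level among the measured genes in the combination and 8690th in DMSO. Its pseudogenes NCF1B and NCF1C lie on the same chromosome and share most of its sequence, so the split of reads between the copies is uncertain. ALOX5AP, which presents arachidonic acid to the leukotriene-making lipoxygenase, had 1091 FPKM in the combination, 4.28 in MC_2580, 773 in RA 0.01 uM, 808 in RA 1 uM and 2.81 in DMSO. G0S2, an inhibitor of fat breakdown, had 1987 FPKM in the combination, 8.11 in MC_2580, 588 in RA 0.01 uM, 718 in RA 1 uM and 6.95 in DMSO. TGM2, the tissue transglutaminase and a classical RA target in these cells, had 223 FPKM in the combination, 0.132 in MC_2580, 78.5 in RA 0.01 uM, 322 in RA 1 uM and 0.0609 in DMSO. In all 4 genes the MC_2580 library was low like DMSO and both RA libraries were high. Of the 15, 4 (G0S2, ICAM1, BPI and CD52) also differed at least 2-fold between like libraries of the knockout table. CD52, a small glycoprotein of the leukocyte surface, had 396 FPKM in the combination and 3.93 in DMSO, beside 26.4 and 4.12 FPKM in KO 1 and KO 2 and 21.8 and 4.31 FPKM in WT 1 and WT 2.

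PADI2 and PADI4, the peptidylarginine deiminases that convert arginine to citrulline, are neighbours on chromosome 1. PADI2 had 184 FPKM in the combination, 103 in RA 0.01 uM and 79.2 in RA 1 uM, against 1.06 FPKM in DMSO, and PADI4 had 118, 47.3 and 35.5 FPKM in the same order, against 0.423 FPKM in DMSO. For both genes the combination exceeded even the higher RA dose in level. AOC1, a diamine oxidase listed under its older name ABP1, had 277 FPKM in the combination, 9.1 in MC_2580, 43.5 in RA 0.01 uM, 24.4 in RA 1 uM and 2.61 in DMSO. FGR, a kinase of the SRC family, showed another order, with 208 FPKM in the combination, 158 in RA 0.01 uM and 256 in RA 1 uM, against 0.689 FPKM in DMSO.

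**Figure D3:**
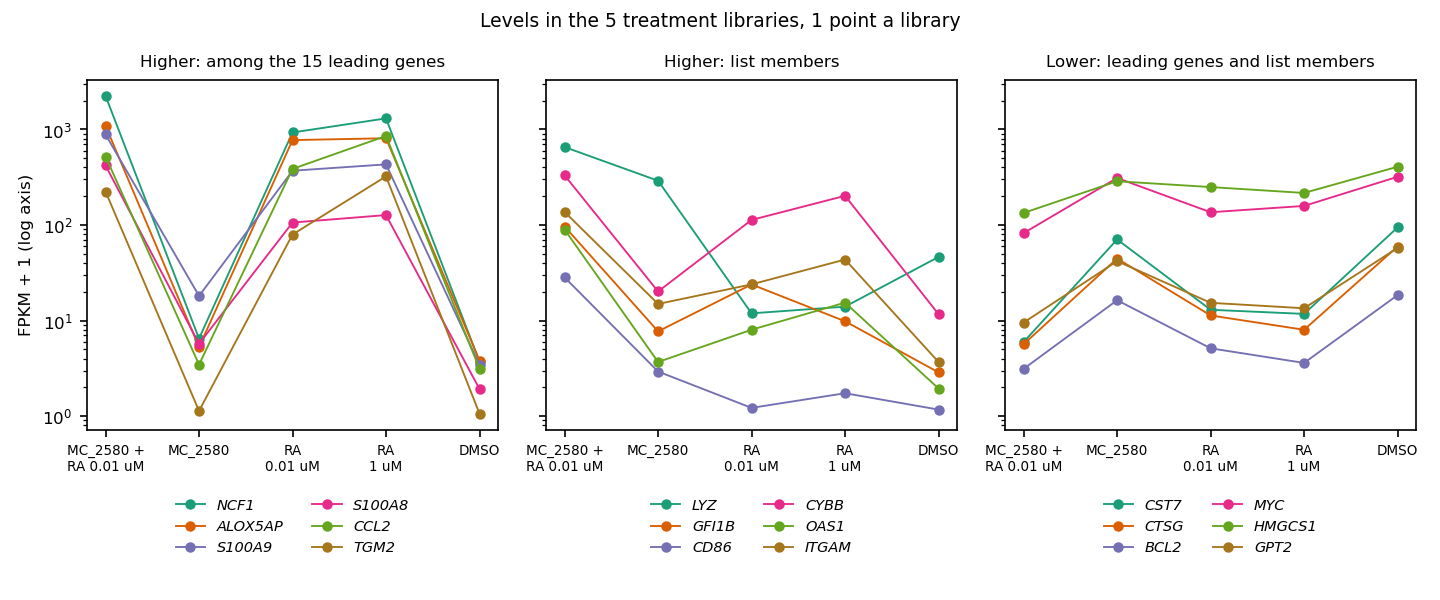
FPKM + 1 (y axis, log scale) of 18 named genes in the 5 treatment libraries, combination leftmost and DMSO rightmost, with 1 point per library and lines only to follow a gene. NCF1, ALOX5AP, S100A9, S100A8, CCL2 and TGM2 are high in the combination and in both RA libraries, LYZ and CD86 are high in the combination and low in both RA libraries, and the genes on the right are lowest in the combination.

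Of the 24 genes of retinoid metabolism and known RA targets, 18 were measured, 13 of them higher in the combination and 0 lower. The median log2 difference of the list was 2.12, and 1.14 without a minimum level. Over all measured genes 9.4% were higher and 3.44% lower, the shares to hold beside the counts of each list below. DHRS3, which reduces retinal to retinol, had 104 FPKM in the combination, 1.95 in MC_2580, 50.0 in RA 0.01 uM, 95.2 in RA 1 uM and 1.14 in DMSO. PRAM1, an adaptor protein first described as repressed by PML-RARA, had 339 FPKM in the combination, 11.98 in MC_2580, 231 in RA 0.01 uM, 298 in RA 1 uM and 7.18 in DMSO. ASB2, a ubiquitin ligase subunit, had 113 FPKM in the combination against 0.376 FPKM in DMSO, and CD38, an ectoenzyme, had 170 FPKM against 10.5 FPKM. CYP26A1, an RA-degrading hydroxylase, had 14.2 FPKM in the combination, 0.0179 in MC_2580, 2.49 in RA 0.01 uM, 37.4 in RA 1 uM and 0.0396 in DMSO, so that the combination lay between both RA doses. PML had 40.5 FPKM in the combination and 18.7 in DMSO, and RARA had 24.0 FPKM in the combination and 11.5 in DMSO, log2 differences of 1.07 and 0.99. Reads of the fusion transcript cannot be told apart from those of its parent genes in these values. RXRA, the partner receptor, was within 2-fold, at 20.2 FPKM in the combination and 33.9 FPKM in DMSO. Of the other members, 4 were under 1 FPKM and 2 had failed.

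**Figure D4:**
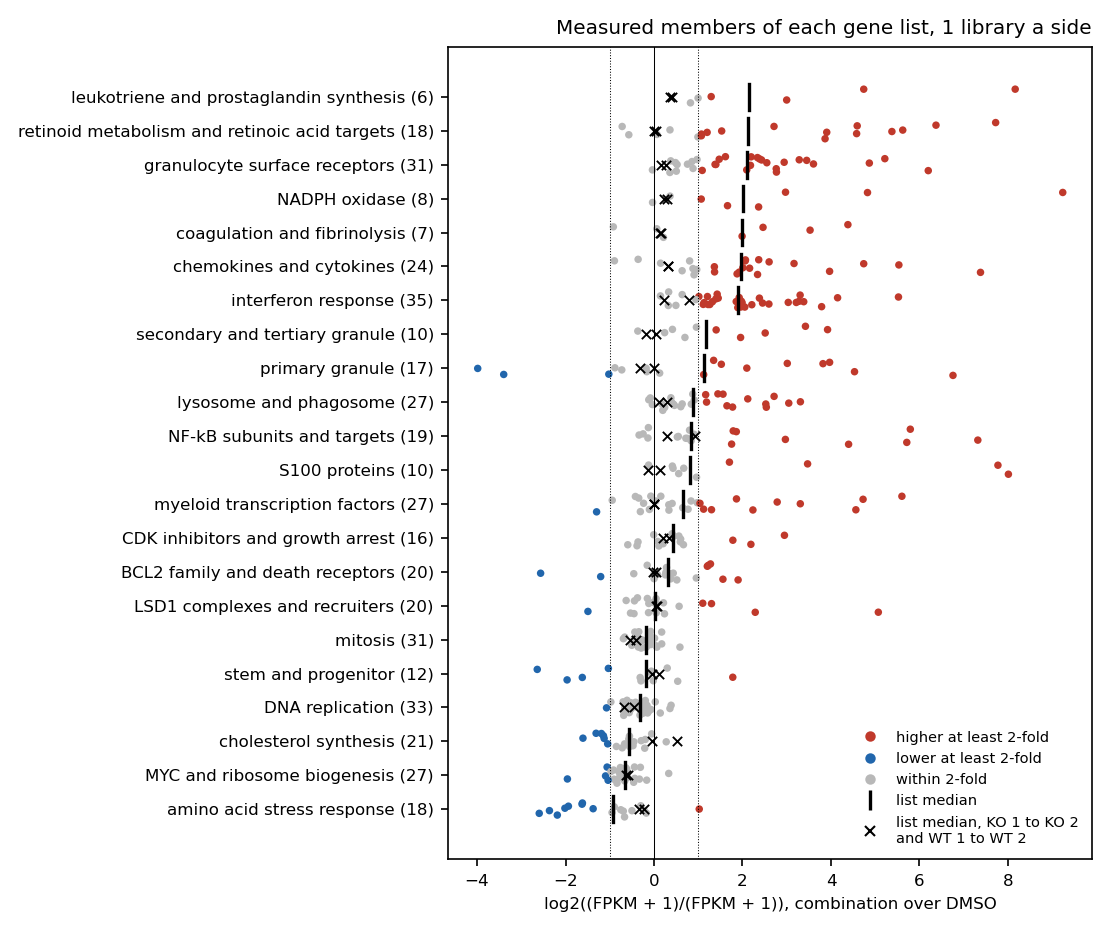
log2((FPKM + 1)/(FPKM + 1)), combination over DMSO (x axis), of each measured member of 22 gene lists (rows, number measured in brackets), with list medians as bars and the medians between KO 1 and KO 2 and between WT 1 and WT 2 as crosses. Lists of RA targets, receptors and chemokines lie to the right, those of amino acid stress, ribosome biogenesis and cholesterol synthesis to the left, and the ribosome biogenesis median of -0.66 lies close to its crosses at -0.64 and -0.60.

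Transcription factors of the myeloid line were split, with 10 of 27 measured members higher and 1 lower, beside 9.4% and 3.44% of all genes. Their median log2 difference was 0.65. CEBPB, a factor of granulocyte maturation, had 167 FPKM in the combination, 4.56 in MC_2580, 172 in RA 0.01 uM, 85.6 in RA 1 uM and 5.36 in DMSO. CEBPE, needed for secondary granules, had 262 FPKM in the combination, 52.2 in MC_2580, 175 in RA 0.01 uM, 341 in RA 1 uM and 37.1 in DMSO. SPI1, which encodes PU.1, had 259 FPKM in the combination and 70.5 FPKM in DMSO, beside 224 in RA 0.01 uM and 262 in RA 1 uM. IRF8, a factor of monocytes and dendritic cells, behaved differently, with 33.5 FPKM in the combination, 16.3 in MC_2580, 3.04 in RA 0.01 uM, 4.58 in RA 1 uM and 6.32 in DMSO. Both RA libraries lay below DMSO for IRF8 and the combination above it. The inhibitors of DNA binding ID1 and ID2 had 58.6 and 65.1 FPKM in the combination, against 0.226 and 1.799 FPKM in DMSO. EGR1, an immediate early factor, was the member that was lower, with 9.53 FPKM in the combination and 24.9 FPKM in DMSO, but its WT libraries alone held 11.8 and 3.26 FPKM.

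The genes of the LSD1 complexes as a group lay near 0, with a median log2 difference of 0.01 over 20 measured members. Of these, 4 were higher and 1 lower, beside 9.4% and 3.44% of all genes. KDM1A itself, listed as AOF2 on chromosome 1 from 23218533 to 23282771 in build hg18, had 50.8 FPKM in the combination, 66.9 in MC_2580, 52.0 in RA 0.01 uM, 51.0 in RA 1 uM and 69.9 in DMSO. In the knockout table KDM1A had 13.96 FPKM in KO 1 and 49.8 FPKM in WT 1, while its second pair had a failed status and gave no value. The higher members were GFI1B and GFI1, which bring LSD1 to DNA, with ZNF217 and GSE1. GFI1B had 95.4 FPKM in the combination, 6.71 in MC_2580, 22.9 in RA 0.01 uM, 8.83 in RA 1 uM and 1.87 in DMSO. GFI1 had 167 FPKM in the combination, 106 in MC_2580, 41.4 in RA 0.01 uM, 55.3 in RA 1 uM and 67.1 in DMSO. For GFI1B the combination was the highest library and DMSO the lowest, while for GFI1 both RA libraries lay below DMSO. In the knockout table GFI1 had 98.4 and 98.2 FPKM in KO 1 and KO 2, against 43.7 and 46.5 FPKM in WT 1 and WT 2, without overlap. RCOR2, a CoREST protein, had 1.15 FPKM in the combination and 5.05 FPKM in DMSO.

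The NADPH oxidase had 6 of 8 members higher and 0 lower, beside 9.4% and 3.44% of all genes. Its median log2 difference was 2.01. CYBB, the catalytic gp91-phox subunit, had 330 FPKM in the combination, 19.1 in MC_2580, 112 in RA 0.01 uM, 201 in RA 1 uM and 10.7 in DMSO. Its membrane partner CYBA had 550 FPKM in the combination and 173 FPKM in DMSO, and the GTPase RAC2, specific to blood cells, had 541 against 104 FPKM. The ubiquitous RAC1 had 104 FPKM in the combination and 107 FPKM in DMSO, and with RAP1A it made up the members within 2-fold.

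Receptors and adhesion molecules of the granulocyte surface were higher for 21 of 31 measured members of 40 and lower for 0. Their median log2 difference was 2.10, and 1.44 without a minimum level. The leukocyte integrin genes ITGAM and ITGAX, for the alpha chains of CD11b and CD11c, had 136 and 71.7 FPKM in the combination, against 2.68 and 1.49 FPKM in DMSO. Their common beta chain ITGB2 had 416 FPKM in the combination and 60.4 FPKM in DMSO. For ITGAM the single agents gave 13.9 FPKM with MC_2580, 22.9 with RA 0.01 uM and 42.5 with RA 1 uM, all under the combination. The carbohydrate-binding receptor CEACAM1 had 11.3 FPKM in the combination and 0.0150 FPKM in DMSO, and PTAFR, the receptor of platelet-activating factor, had 33.9 against 2.19 FPKM. SIRPA, the inhibitory receptor of CD47, had 171 FPKM in the combination and 16.7 FPKM in DMSO. Surface proteins of later stages of neutrophil maturation were not all present. FCGR3B, CD177, CEACAM8 and MME were under 1 FPKM in both libraries. The toll-like receptor TLR2 had 3.55 FPKM in the combination and 3.67 FPKM in DMSO.

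Granule genes went in both directions. Of 17 measured primary granule genes 9 were higher and 3 lower. Their median log2 difference was 1.12, and 0.62 without a minimum level. BPI, a lipopolysaccharide-binding antibacterial protein, had 190 FPKM in the combination, 1.23 in MC_2580, 114 in RA 0.01 uM, 188 in RA 1 uM and 0.762 in DMSO. LYZ, which encodes lysozyme, had 653 FPKM in the combination, 290 in MC_2580, 10.9 in RA 0.01 uM, 12.98 in RA 1 uM and 45.3 in DMSO. Lysozyme was thus the reverse of BPI, high with MC_2580 and below DMSO with both RA doses. The alpha-defensin genes DEFA1, DEFA3 and DEFA4 were above DMSO but lower in the combination than in both RA libraries. DEFA4 had 72.7 FPKM in the combination, 0.492 in MC_2580, 271 in RA 0.01 uM, 389 in RA 1 uM and 2.18 in DMSO. DEFA1 and DEFA3 had 14.5 and 178 FPKM in the combination, 142 and 1447 FPKM in RA 0.01 uM and 89.0 and 979 FPKM in RA 1 uM, against 2.62 and 21.2 FPKM in DMSO, but they are near-identical copies between which reads can be split. MPO, the myeloperoxidase of promyelocytes, had 2873 FPKM in the combination and 5301 FPKM in DMSO, a log2 difference of -0.88, within 2-fold. CTSG, the serine protease cathepsin G, had 4.65 FPKM in the combination, 43.6 in MC_2580, 10.3 in RA 0.01 uM, 7.01 in RA 1 uM and 58.6 in DMSO. CST7, an inhibitor of lysosomal cysteine proteases, had the largest difference below DMSO on FPKM + 1, with 4.96 FPKM in the combination, 69.6 in MC_2580, 11.97 in RA 0.01 uM, 10.7 in RA 1 uM and 93.4 in DMSO. The neutrophil elastase gene ELANE was under 1 FPKM in both libraries.

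Secondary and tertiary granule genes were expressed in part. Of the 19 listed, 9 were under 1 FPKM in both libraries, among them LTF, LCN2, MMP8, OLFM4 and ARG1. Of the 10 measured, 5 were higher and 0 lower. HP, the haemoglobin-binding haptoglobin, had 15.9 FPKM in the combination, 0.365 in MC_2580, 0.154 in RA 0.01 uM, 0.434 in RA 1 uM and 0.112 in DMSO. FCN1, a lectin of the complement system, had 114 FPKM in the combination, 11.5 in MC_2580, 20.2 in RA 0.01 uM, 13.6 in RA 1 uM and 9.72 in DMSO. In both genes the combination stood above every other treatment library. MMP9, the gelatinase, had 78.2 FPKM in the combination and 28.9 FPKM in DMSO.

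Of 10 measured S100 genes 4 were higher and all others lay within 2-fold. Their median log2 difference was 0.82, and 0.67 without a minimum level. S100A9 had 885 FPKM in the combination, 17.1 in MC_2580, 369 in RA 0.01 uM, 430 in RA 1 uM and 2.44 in DMSO. S100A8, its partner in calprotectin, had 420 FPKM in the combination, 4.71 in MC_2580, 105 in RA 0.01 uM, 126 in RA 1 uM and 0.921 in DMSO. In both genes the level with the combination was above that with the higher RA dose. S100A12 had 10.1 FPKM in the combination and was listed at 0 in DMSO. Among untreated cells S100A9 had 39.9 and 55.9 FPKM in KO 1 and KO 2, against 4.30 and 3.84 FPKM in WT 1 and WT 2. For S100A8 the values were 10.3 and 17.4 FPKM in KO 1 and KO 2 and 0.630 and 1.23 FPKM in WT 1 and WT 2.

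Interferon response genes were higher for 29 of 35 measured members of 40 and lower for 0. Their median log2 difference was 1.89, and 1.65 without a minimum level. This list also differed between like libraries, with a median of 0.79 between WT 1 and WT 2 and 0.23 between KO 1 and KO 2. OAS1, which makes the second messenger that activates RNase L, had 88.6 FPKM in the combination, 2.69 in MC_2580, 7.01 in RA 0.01 uM, 14.4 in RA 1 uM and 0.944 in DMSO. IFI6 had 164 FPKM in the combination, 9.61 in MC_2580, 101 in RA 0.01 uM, 106 in RA 1 uM and 8.29 in DMSO. IFIT3, which binds foreign RNA with its relatives, had 30.8 FPKM in the combination, 3.26 in MC_2580, 6.85 in RA 0.01 uM, 12.5 in RA 1 uM and 2.23 in DMSO. For OAS1 and IFIT3 both RA libraries lay well under the combination, and for IFI6 they came near it. GBP1, a guanylate-binding protein, had 9.68 FPKM in the combination, 0.998 in MC_2580, 0.246 in RA 0.01 uM, 0.343 in RA 1 uM and 0.0227 in DMSO. IRF1 had 163 FPKM in the combination, 119 in RA 0.01 uM and 123 in RA 1 uM, against 15.5 FPKM in DMSO.

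Chemokines and cytokines had 16 of 24 measured members of 32 higher and 0 lower, with a median log2 difference of 1.97. Another 7 were under 1 FPKM in both libraries, and without a minimum level the median was 1.36. CCL2, which attracts monocytes, had 519 FPKM in the combination, 2.46 in MC_2580, 385 in RA 0.01 uM, 854 in RA 1 uM and 2.12 in DMSO. CXCL10, an interferon-induced chemokine for T cells, had 74.8 FPKM in the combination, 19.96 in MC_2580, 0.897 in RA 0.01 uM, 7.32 in RA 1 uM and 1.84 in DMSO. IL1B, the pyrogenic interleukin, had 24.4 FPKM in the combination, 2.20 in MC_2580, 2.68 in RA 0.01 uM, 4.02 in RA 1 uM and 0.623 in DMSO. CCL2 followed RA, CXCL10 was high with MC_2580 and low with RA 0.01 uM, and IL1B was low in every library but the combination. CXCL10 is one of the less steady genes, with 6.14 and 1.55 FPKM in KO 1 and KO 2 and 12.7 and 1.68 FPKM in WT 1 and WT 2. CCL24, which attracts eosinophils, had 49.7 FPKM in the combination, 93.5 in RA 0.01 uM and 197 in RA 1 uM, against 0.0931 FPKM in DMSO, and was listed at 0 with MC_2580. TNF was level across the pair, at 104 FPKM in the combination and 93.6 FPKM in DMSO, while both RA libraries held 19.3 and 22.8 FPKM. IL1RN, the natural blocker of the interleukin receptor, had 1.34 FPKM in the combination, 14.5 in MC_2580, 0.0607 in RA 0.01 uM, 0.0884 in RA 1 uM and 3.35 in DMSO.

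Of 19 NF-kB subunits and targets 8 were higher and 0 lower, with a median log2 difference of 0.84 beside 0.92 between WT 1 and WT 2. ICAM1, the integrin ligand, had 1854 FPKM in the combination, 28.7 in MC_2580, 425 in RA 0.01 uM, 594 in RA 1 uM and 10.6 in DMSO. BCL2A1, an anti-apoptotic BCL2 relative of myeloid cells, had 445 FPKM in the combination, 5.86 in MC_2580, 211 in RA 0.01 uM, 157 in RA 1 uM and 7.04 in DMSO. TNFAIP2 had 288 FPKM in the combination, 135 in RA 0.01 uM and 106 in RA 1 uM, against 4.498 FPKM in DMSO. These genes were far above the spread, whereas the subunit genes NFKB1 and RELA lay within 2-fold, at 41.5 and 40.6 FPKM in the combination, against 23.4 and 27.9 FPKM in DMSO. ICAM1 had 22.1 and 8.53 FPKM in KO 1 and KO 2 and 21.4 and 4.21 FPKM in WT 1 and WT 2.

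Enzymes and regulators of smaller pathways were higher in part. Of 11 leukotriene and prostaglandin genes 6 were measured and 4 of these were higher, with a median log2 difference of 2.15. Another 4 were under 1 FPKM in both libraries, and without a minimum level the median was 0.91. PTGES, which makes prostaglandin E, had 25.7 FPKM in the combination, 0.0245 in MC_2580, 5.16 in RA 0.01 uM and 87.8 in RA 1 uM, and was listed at 0 in DMSO. Of 15 coagulation and fibrinolysis genes 7 were measured and 4 of these were higher, while 8 were under 1 FPKM in both libraries. Their median log2 difference was 1.99, and 0.063 without a minimum level. THBD, which encodes thrombomodulin, led with 47.0 FPKM in the combination and 1.303 FPKM in DMSO. The tissue factor gene F3, the initiator of clotting, had 4.58 FPKM in the combination and 9.56 FPKM in DMSO, a log2 difference of -0.92. ANXA2, an annexin that promotes plasmin formation on promyelocytic leukaemia cells, had 33.3 FPKM in the combination, 76.6 in MC_2580, 9.15 in RA 0.01 uM, 8.84 in RA 1 uM and 31.9 in DMSO. The combination thus stood at the DMSO level of ANXA2 where both RA libraries stood below it. Of 27 measured lysosome and phagosome genes 12 were higher and 0 lower, with a median log2 difference of 0.88, and the cathepsin gene CTSB had 138 FPKM in the combination, 30.9 in MC_2580, 15.8 in RA 0.01 uM, 23.9 in RA 1 uM and 20.2 in DMSO.

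The medians of the mitosis and DNA replication lists were smaller in size than those between like libraries. None of 31 measured mitosis genes passed 2-fold in either direction, and their median log2 difference was -0.17, beside -0.55 between KO 1 and KO 2 and -0.40 between WT 1 and WT 2. MKI67, the proliferation marker, had 81.7 FPKM in the combination and 81.0 FPKM in DMSO. Of 33 measured DNA replication genes 1, GINS2, was lower at 43.2 FPKM in the combination and 92.0 FPKM in DMSO, and the list median of -0.32 was smaller in size than those between KO 1 and KO 2 (-0.69) and between WT 1 and WT 2 (-0.44). Growth arrest genes had 3 of 16 higher and 0 lower, with a median log2 difference of 0.43, beside 0.33 between KO 1 and KO 2 and 0.21 between WT 1 and WT 2. CDKN2D, the p19 inhibitor of cyclin-dependent kinases, had 122 FPKM in the combination, 19.9 in MC_2580, 100 in RA 0.01 uM, 76.6 in RA 1 uM and 14.9 in DMSO. CDKN1A, which encodes p21, had 5.20 FPKM in the combination and 3.10 FPKM in DMSO.

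The 15 genes with the largest difference below DMSO were CST7, CTSG, CHAT, KCNH2, DEFB1, RTN4R, SOX18, CYTL1, LYPD6B, TERT, IGFBP4, GPT2, BCL2, NOG and ASIC1. This order holds on FPKM + 1: with a pseudocount of 0.1 the log2 differences were -5.59 for CHAT, -5.39 for LYPD6B and -4.21 for CST7. BCL2, the founding anti-apoptotic gene of its family, had 2.12 FPKM in the combination, 15.3 in MC_2580, 4.12 in RA 0.01 uM, 2.60 in RA 1 uM and 17.5 in DMSO. TERT, the catalytic subunit of telomerase, had 1.85 FPKM in the combination, 20.2 in MC_2580, 2.79 in RA 0.01 uM, 1.93 in RA 1 uM and 16.7 in DMSO. IGFBP4, a binding protein of insulin-like growth factors, had 13.5 FPKM in the combination, 93.9 in MC_2580, 14.7 in RA 0.01 uM, 15.5 in RA 1 uM and 87.0 in DMSO. In these genes the MC_2580 library stood at the DMSO level and the combination beside both RA libraries. CYTL1, a small secreted protein of progenitor cells, had 28.9 FPKM in the combination, 459 in MC_2580, 7.71 in RA 0.01 uM, 9.03 in RA 1 uM and 201 in DMSO. KCNH2, a potassium channel, had 2.32 FPKM in the combination and 24.5 FPKM in DMSO, and untreated cells held 1.25 and 1.90 FPKM in KO 1 and KO 2, against 15.1 and 23.05 FPKM in WT 1 and WT 2. CHAT, CTSG, CYTL1 and LYPD6B also differed at least 2-fold between like libraries.

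MYC had 81.3 FPKM in the combination, 309 in MC_2580, 135 in RA 0.01 uM, 157 in RA 1 uM and 319 in DMSO, a log2 difference of -1.96. The list of MYC and ribosome biogenesis genes had 4 of 27 lower and 0 higher, MYC, LYAR, CAD and SRM, and its median log2 difference of -0.66 was of the size seen between KO 1 and KO 2 (-0.64) and between WT 1 and WT 2 (-0.60). MYC itself had 248 and 262 FPKM in KO 1 and KO 2 and 260 and 224 FPKM in WT 1 and WT 2. The difference of MYC was far larger than that between its like libraries, while the list median exceeded those of the like libraries only slightly. Of 12 measured stem and progenitor genes 4 were lower and 1 was higher, beside 3.44% and 9.4% of all genes. The other 7 lay within 2-fold, and 9 more were under 1 FPKM in both libraries. The median log2 difference was -0.19, and -0.027 without a minimum level. The higher member was NOTCH1, a receptor of cell fate signalling, with 19.7 FPKM in the combination and 5.01 FPKM in DMSO. Among the lower members GATA2 had 8.59 FPKM in the combination against 28.5 FPKM in DMSO, and WT1, the Wilms tumour factor, had 7.42 against 31.9 FPKM.

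Genes of amino acid synthesis and uptake were lower for 8 of 18 measured members and higher for 1, with a median log2 difference of -0.92, beside -0.35 between KO 1 and KO 2 and -0.24 between WT 1 and WT 2. PSAT1, an enzyme of serine synthesis, had 14.1 FPKM in the combination, 45.5 in MC_2580, 23.5 in RA 0.01 uM, 17.9 in RA 1 uM and 67.7 in DMSO. ASNS, asparagine synthetase, had 17.9 FPKM in the combination, 42.3 in MC_2580, 24.96 in RA 0.01 uM, 22.1 in RA 1 uM and 71.4 in DMSO. SLC7A5, the chain of a carrier for large neutral amino acids, had 40.5 FPKM in the combination, 169 in MC_2580, 58.6 in RA 0.01 uM, 47.7 in RA 1 uM and 166 in DMSO. The combination was the lowest library for these 3 genes, but over the list the median against DMSO was -1.06 with RA 0.01 uM and -1.02 with RA 1 uM. PYCR1, of proline synthesis, had 4.91 FPKM in the combination against 29.4 FPKM in DMSO, and GPT2, a mitochondrial alanine aminotransferase, had 8.53 against 56.6 FPKM. ATF4, the transcription factor of this response, was within 2-fold at 182 FPKM in the combination and 257 FPKM in DMSO. SLC7A5 and PSAT1 also varied between like libraries, with 64.2 and 142 FPKM of SLC7A5 in KO 1 and KO 2 and 67.3 and 149 FPKM in WT 1 and WT 2.

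Cholesterol synthesis genes were lower for 6 of 21 measured members and higher for 0, with a median log2 difference of -0.55, beside -0.03 between KO 1 and KO 2 and 0.51 between WT 1 and WT 2. HMGCS1, an early enzyme of the pathway, had 133 FPKM in the combination, 286 in MC_2580, 249 in RA 0.01 uM, 216 in RA 1 uM and 406 in DMSO. All 4 treated libraries lay below DMSO for this gene, and the combination was lowest. HMGCS1 had 60.8 and 57.9 FPKM in KO 1 and KO 2, against 191 and 92.1 FPKM in WT 1 and WT 2, without overlap but with a wide WT pair.

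Genes of the BCL2 family and death receptors had 5 of 20 higher and 2 lower, beside 9.4% and 3.44% of all genes. Their median log2 difference was 0.32, beside 0.05 between KO 1 and KO 2 and -0.02 between WT 1 and WT 2. BIK, a pro-apoptotic BCL2 relative, had 47.7 FPKM in the combination and 12.03 FPKM in DMSO, and CASP1, the inflammatory caspase, had 39.0 against 12.6 FPKM. BBC3, which encodes the pro-apoptotic PUMA, had 6.30 FPKM in the combination and 15.8 FPKM in DMSO, and its KO libraries held 20.2 and 8.14 FPKM and its WT libraries 22.5 and 6.74 FPKM. MCL1, an anti-apoptotic member, was within 2-fold at 115 FPKM in the combination and 59.0 FPKM in DMSO.

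Markers of other blood cells were read beside these results. Over all measured genes 9.4% were higher and 3.44% lower. Of 22 monocyte and macrophage markers 8 were measured, 7 of them higher, with a summed level of 176 FPKM in the combination and 22.2 FPKM in DMSO. Their median log2 difference was 1.76, and 0.042 without a minimum level. CD86, a costimulatory protein of antigen-presenting cells, had 27.3 FPKM in the combination, 1.93 in MC_2580, 0.219 in RA 0.01 uM, 0.736 in RA 1 uM and 0.170 in DMSO. CD14 had 3.03 FPKM in the combination and 0.109 FPKM in DMSO, while 13 of the markers, among them CD163, MRC1, MARCO, VCAN and the C1Q genes, were under 1 FPKM in both libraries and CSF1R had failed. CD1D and LY86 had 78.7 and 50.6 FPKM in the combination, against 0.969 and 15.5 FPKM in DMSO. Of 20 lymphoid markers 5 were measured and 3 were higher, with sums of 302 FPKM in the combination and 142 FPKM in DMSO, led by the B cell receptor chain CD79A at 73.4 against 1.62 FPKM. The lymphoid median log2 difference was 1.05, and 0.0030 without a minimum level. Among 15 eosinophil, basophil and mast cell markers 8 were measured, 2 higher and 3 lower, with sums of 406 FPKM in the combination and 1380 FPKM in DMSO. Most of that sum was PRG2, the eosinophil major basic protein, at 380 FPKM in the combination and 1294 FPKM in DMSO. HDC, which makes histamine, had 9.75 FPKM in the combination and 58.4 FPKM in DMSO. Of 12 megakaryocyte markers 3 were measured and 2 were higher, with sums of 25.2 FPKM in the combination and 7.78 FPKM in DMSO. The megakaryocyte median log2 difference was 1.40, and 0.11 without a minimum level. The 2 of 15 erythroid markers and the 3 of 13 fibroblast and epithelial markers that were measured lay within 2-fold. Of 13 promyelocyte markers 9 were measured, 4 higher and 1 lower, with sums of 7367 FPKM in the combination and 7082 FPKM in DMSO. Their median log2 difference was 0.54, and -0.034 without a minimum level. ELANE, KIT, CD34 and HLA-DRA were under 1 FPKM in both libraries. The part of any other cell type in the results was not tested.

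The knockout table shares no library with the pair and gives another reading of the same genes. Of the 948 genes higher in the combination and valued there, 77 (8.12%) had both KO values above both WT values with a mean difference of at least 2-fold, beside 1.85% of all 10098 genes. The opposite, both KO values below both WT values, was seen for 20 of them (2.11%), beside 0.881% of all genes. Of the 348 lower genes 23 (6.61%) were lower in KO and 10 (2.87%) were higher. The genes higher in both readings included S100A9, S100A8, BPI, ITGAM, GFI1B, CD79A and LYZ, and those lower in both included CTSG, KCNH2, DEFB1, LYPD6B, PRG2 and HMGCS1. For LYZ, KO 1 and KO 2 held 381 and 912 FPKM, against 34.1 and 116 FPKM in WT 1 and WT 2. Among the 15 leading genes, ALOX5AP, G0S2 and CCL2 went the other way. CCL2 had 0.172 and 0.132 FPKM in KO 1 and KO 2, against 3.44 and 3.005 FPKM in WT 1 and WT 2, and G0S2 had 0.0467 FPKM in KO 1 and was listed at 0 in KO 2, against 4.16 and 10.1 FPKM in WT 1 and WT 2. The median log2 difference between KO and WT was 0.05 for the genes higher in the combination and -0.11 for the lower ones, beside -0.03 for all genes. Without WT replicate 1 or KO replicate 2 the count of 77 becomes 120 or 118, and the share of all genes 3.09% or 3.06%.

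Some genes higher in the combination lay side by side. Of the 952, 131 stood in 37 runs of at least 3 neighbouring measured genes that were all higher, while the 348 lower genes formed 1 run. Higher genes were 9.4% of those measured and lower genes 3.44%, and runs become rarer as fewer genes are called. The run counts are therefore not directly comparable, and how many runs position alone would give was not tested. The longest, of 7 genes, spans chromosome 11 from 117196000 to 117628245 in build hg18 and holds FXYD2, FXYD6, IL10RA, TMPRSS4, SCN4B, JAML and MPZL3. A run of 6 on chromosome 17, from 69974117 to 70277084, holds 4 genes of the CD300 family of leukocyte receptors. Others are made of related genes too: the integrin genes ITGAM, ITGAX and ITGAD with PYCARD on chromosome 16, from 31084766 to 31345327, and S100A9, S100A12 and S100A8 on chromosome 1, from 151596954 to 151630173. The labels do not say that strand was kept, so reads of overlapping neighbours cannot be told apart.

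Promoters were examined for sequence features that the calls did not use, in 12151 RefSeq promoters (build GRCh38.p14, 250 bases before to 50 after each start, several starts for some genes) of 8395 measured genes. The PU.1-type letters GAGGAAGT, on either strand, stood in 6.39% of 1127 promoters of higher genes, in 1.92% of 417 promoters of lower genes and in 2.88% of all. The interferon-response core, GAAA on either side of any pair of bases, stood in 6.83% of the promoters of higher genes, 0.959% of those of lower genes and 2.97% of all. The E box CACGTG, the letters that MYC and USF proteins bind, ran the other way, with 6.03% in higher genes, 15.3% in lower genes and 9.66% in all. The ETS letters CCGGAAGT, common in housekeeping promoters, stood in 2.22%, 1.92% and 8.2%. The strict RA receptor element, a direct repeat of AGGTCA with a spacing of 5 bases, stood in 0 promoters of this length. These shares describe letters and not bound sites, and the motifs share the bases GGAAGT in part. Promoters of higher genes were poor in CpG, with a median ratio of observed to expected CpG of 0.583, against 0.802 in lower genes and 0.824 in all.

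Promoters of 5 higher and 2 lower genes that hold these letters show how they are placed. They are written 5′ to 3′ along the gene, in lower case with the matched letters in capitals. NCF1 and BCL2A1 hold the PU.1-type and the interferon-response letters, ALOX5AP holds the PU.1-type letters on each strand, CYBB and IFI6 hold the interferon-response core 2 and 3 times, and LYAR and SLC7A5 hold the E box.
NCF1, chr7:74773761-74774060, plus strand: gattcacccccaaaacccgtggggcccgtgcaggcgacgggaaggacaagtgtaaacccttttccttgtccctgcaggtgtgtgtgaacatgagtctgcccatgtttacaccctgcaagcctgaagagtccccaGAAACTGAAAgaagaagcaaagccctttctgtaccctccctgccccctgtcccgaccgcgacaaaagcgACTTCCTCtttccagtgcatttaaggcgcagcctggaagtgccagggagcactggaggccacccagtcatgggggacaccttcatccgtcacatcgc
BCL2A1, chr15:79971147-79971446, minus strand: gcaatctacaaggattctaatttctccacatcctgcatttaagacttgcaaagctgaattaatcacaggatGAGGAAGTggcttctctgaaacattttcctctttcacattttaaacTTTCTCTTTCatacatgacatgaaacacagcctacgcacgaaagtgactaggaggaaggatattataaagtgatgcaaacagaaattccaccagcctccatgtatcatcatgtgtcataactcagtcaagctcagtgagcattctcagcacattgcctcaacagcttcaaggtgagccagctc
ALOX5AP, chr13:30713235-30713534, plus strand: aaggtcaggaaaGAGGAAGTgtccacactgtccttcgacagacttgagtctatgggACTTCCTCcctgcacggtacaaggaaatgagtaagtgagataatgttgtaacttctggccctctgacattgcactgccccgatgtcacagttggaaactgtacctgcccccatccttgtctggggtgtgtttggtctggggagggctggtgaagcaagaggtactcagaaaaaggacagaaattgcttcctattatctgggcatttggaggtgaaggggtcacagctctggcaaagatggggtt
CYBB, chrX:37779809-37780108, plus strand: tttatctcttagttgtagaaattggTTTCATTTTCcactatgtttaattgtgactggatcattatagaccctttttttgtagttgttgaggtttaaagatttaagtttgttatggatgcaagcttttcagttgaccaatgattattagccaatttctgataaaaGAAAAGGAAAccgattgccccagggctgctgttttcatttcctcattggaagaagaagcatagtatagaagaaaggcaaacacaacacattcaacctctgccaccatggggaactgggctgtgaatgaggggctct
IFI6, chr1:27672143-27672442, minus strand: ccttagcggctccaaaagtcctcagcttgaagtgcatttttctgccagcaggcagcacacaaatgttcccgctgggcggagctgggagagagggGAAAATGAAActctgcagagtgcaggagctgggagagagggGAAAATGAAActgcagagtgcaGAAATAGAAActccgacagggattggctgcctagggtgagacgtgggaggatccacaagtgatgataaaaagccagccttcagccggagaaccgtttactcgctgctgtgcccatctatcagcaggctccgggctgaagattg
LYAR, chr4:4289972-4290271, minus strand: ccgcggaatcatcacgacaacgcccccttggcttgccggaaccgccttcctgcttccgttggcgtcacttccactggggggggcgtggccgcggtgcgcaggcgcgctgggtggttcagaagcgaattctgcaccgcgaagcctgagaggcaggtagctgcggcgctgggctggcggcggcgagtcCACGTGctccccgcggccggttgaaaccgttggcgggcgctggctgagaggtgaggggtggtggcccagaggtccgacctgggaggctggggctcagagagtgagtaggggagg
SLC7A5, chr16:87869458-87869757, minus strand: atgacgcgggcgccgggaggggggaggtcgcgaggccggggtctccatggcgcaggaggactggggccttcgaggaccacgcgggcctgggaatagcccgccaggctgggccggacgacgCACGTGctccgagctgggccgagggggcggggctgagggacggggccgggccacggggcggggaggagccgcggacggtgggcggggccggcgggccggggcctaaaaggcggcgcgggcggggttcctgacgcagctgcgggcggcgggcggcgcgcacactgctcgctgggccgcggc

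In NCF1 the interferon-response core begins 116 bases before the start, on the coding strand, and the PU.1-type letters begin 47 bases before it, on the other strand. In BCL2A1 they begin 133 and 179 bases before the start. NCF1 had 2245 FPKM in the combination and BCL2A1 445 FPKM, against 2.72 and 7.04 FPKM in DMSO. ALOX5AP holds the PU.1-type letters at 238 and 194 bases before its start. In IFI6 the 3 copies begin 156, 115 and 93 bases before the start, and its level was 164 FPKM in the combination and 8.29 FPKM in DMSO. LYAR, a nucleolar protein of the ribosome biogenesis list, had 61.6 FPKM in the combination and 133 FPKM in DMSO, and its E box begins 64 bases before the start. The E box of SLC7A5 begins 130 bases before the start. S100A9, among the 15 leading genes, has a promoter in the table that holds none of the PU.1-type, interferon-response or E box letters.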

How the data were processed

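RNA sequencing values of 9 NB4 libraries were used, 5 treatments with 1 library each and KO and WT with 2 each, grouped by the labels. Each of the authors' deposited tables gives FPKM, laid out as by Cuffdiff per the file headers. The submitters' processing notes list, with no role or order, build hg18 and the tools TopHat2 2.0.10, TopHat 1.3.1, CASAVA 1.8, Cuffdiff and Cufflinks. The sources used here state neither the annotation nor the scaling between libraries. Every FPKM in the deposited knockout table carries an added 0.001, which was subtracted. Whether that table was normalised together with the treatment table is not stated, so the tables were never compared in level. The authors' deposited significance calls, each from a test of 1 library against another, were used only as their calls.

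Names were matched to RefSeq symbols and synonyms on the same chromosome (20598 loci), which gave 17707 protein-coding genes with 1 locus, 440 of them with a failed status. A further 142 loci whose names join several genes got no symbol. Starts in the files count from 0 and are given counted from 1. Differences are log2((FPKM + 1)/(FPKM + 1)), for genes that reached 1 FPKM in either library, called at 2-fold, with no test and no p-value. Depth is unknown, so no counting interval is given. A gene was called between KO and WT where both values of a genotype lay above both of the other and the mean log2 difference reached 2-fold. KO and WT libraries of the same replicate number were not set against each other as pairs.

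The genes named are the 15 highest and 15 lowest of at least 5 FPKM in 1 library, up to 6 called members per direction of 29 gene lists (634 entries, 620 genes, 464 measured), members within 2-fold to show what a list holds, and KDM1A, PML and RARA; a few more are named in the runs and the knockout comparison, chosen after their values were seen. Printed promoters were chosen because they hold the letters searched. The members and lists were chosen with earlier results of these data known. Alternatives were other pseudocounts, filters and folds, rescaling, quantile normalization, all loci, the authors' calls, and leaving out each KO or WT library. The software was matplotlib 3.10.9, numpy 2.4.6 and pandas 2.3.3 under Python 3.11.15.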

Additional observations from a re-analysis of the deposited data

Results flagged for a closer look

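A signal appeared at loci outside the protein-coding set used for every count, above the level of the DMSO library. The pseudogene NCF1C had 2426 FPKM in the combination, 4.09 in MC_2580, 938 in RA 0.01 uM, 1330 in RA 1 uM and 1.98 in DMSO. The pseudogene NCF1B had 937 FPKM in the combination, 2.02 in MC_2580, 392.1 in RA 0.01 uM, 569 in RA 1 uM and 0.956 in DMSO. Both were high and low in the same libraries as NCF1, with which they share sequence. How reads were divided among the 3 copies was not tested. No group has 4 or more libraries, so no library could be checked against its own group.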

How the results depend on the processing

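No paired analysis was possible because the results come from no test: each treatment has 1 library, and KO and WT were read only by overlap. The 952 higher and 348 lower genes became 582 and 126 with a pseudocount of 5, 354 and 38 at 4-fold, and 1642 and 1184 at 1.5-fold. Over all loci 642 were lower, and the authors' calls gave 185 lower. With a pseudocount of 0.1, with 5 FPKM as the minimum, without a minimum, after rescaling, after quantile normalization or with the values as listed in the pair, both counts stayed within 1.5 times of those given. After quantile normalization they were 821 and 457.

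The like-library spread of a list is the root mean square of its KO 1 to KO 2 and WT 1 to WT 2 medians. It measures a shift of the whole list and not the scatter of its members. Those medians were 0.0058 and 0.0083 for the myeloid factors, so slight moves count there. They were 0.23 and 0.79 for the interferon genes, whose median of 1.35 with a pseudocount of 5 is therefore not listed. With a pseudocount of 0.1, the list medians that moved by more than their like-library spread were 3.80 (retinoid metabolism and retinoic acid targets), 0.66 (myeloid transcription factors), 2.57 (granulocyte surface receptors), 2.496 (chemokines and cytokines), 3.23 (leukotriene and prostaglandin synthesis), -1.30 (amino acid stress response), 3.50 (monocyte and macrophage), 4.12 (megakaryocyte). With a pseudocount of 5, the list medians that moved by more than their like-library spread were 1.02 (retinoid metabolism and retinoic acid targets), 0.35 (myeloid transcription factors), 1.10 (granulocyte surface receptors), 1.51 (NADPH oxidase), 0.47 (primary granule), 0.78 (secondary and tertiary granule), 0.67 (S100 proteins), 0.94 (chemokines and cytokines), 1.13 (coagulation and fibrinolysis), 1.48 (leukotriene and prostaglandin synthesis), 0.27 (BCL2 family and death receptors), 0.95 (monocyte and macrophage), 0.41 (megakaryocyte). Without a minimum level, the list medians that moved by more than their like-library spread were 1.14 (retinoid metabolism and retinoic acid targets), 1.44 (granulocyte surface receptors), 0.62 (primary granule), 0.42 (secondary and tertiary granule), 0.67 (S100 proteins), 1.36 (chemokines and cytokines), 0.063 (coagulation and fibrinolysis), 0.91 (leukotriene and prostaglandin synthesis), -0.027 (stem and progenitor), 0.042 (monocyte and macrophage), 0.0030 (lymphoid), 0.00 (erythroid), 0.11 (megakaryocyte), -0.034 (promyelocyte). After rescaling to a median of 0, the list median that moved so was 0.67 (myeloid transcription factors). After quantile normalization, the list medians that moved by more than their like-library spread were 2.00 (retinoid metabolism and retinoic acid targets), 0.57 (myeloid transcription factors), 1.51 (NADPH oxidase), 0.27 (BCL2 family and death receptors), -0.28 (eosinophil, basophil and mast), -0.35 (erythroid), 1.26 (megakaryocyte). No list median of at least 1 in size changed sign, which another pseudocount or the rescaling could hardly bring about.

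The 77 genes higher in the combination and in KO became 117 with a pseudocount of 0.1 (12.3%, beside 2.89% of all genes). With a pseudocount of 5 they became 33 (3.48%, beside 0.733% of all). Without a single KO or WT library they were between 68 and 120 (7.17% to 12.7%, beside 1.77% to 3.09% of all). The 23 lower ones became 13 with a pseudocount of 5 (3.74%, beside 0.327% of all genes). Without a single library they were between 24 and 34 (6.9% to 9.77%, beside 0.98% to 1.9% of all). In promoters of genes 4-fold higher the shares were 9.18% for the PU.1-type letters, 9.42% for the interferon-response core and 7.97% for the E box. They were 0.725% for the ETS letters and 0 for the NF-kB, E2F and spacing-1 repeat letters. The last 3 stood in 0.532%, 0.266% and 0.0887% at 2-fold, beside 0.214%, 0.922% and 0.0329% of all promoters. The TATA box stood in 11.6% at 4-fold and 8.78% at 2-fold, beside 6.16% of all. In promoters of genes 4-fold lower the STAT letters stood in 2.86%, beside 0.719% at 2-fold lower and 1.18% of all. The interferon-response core, ETS and E2F letters stood in 0 of them, with E2F in 0.48% at 2-fold lower. Only 38 genes were 4-fold lower, so these shares rest on few promoters. None of the 868 values of 218 named genes changed sign where called. Another pseudocount cannot change a sign, and the rescaling moved values by only 0.02. Only quantile normalization could therefore have changed a sign. With a pseudocount of 5, 45 of these values came under 2-fold. The cause was not tested for any of these shifts. With 1 library a side, depth and batch cannot be told apart from the treatment, and values near 1 FPKM rest on few reads.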

Other observations

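Outside the protein-coding set, 3715 loci reached 1 FPKM in 1 of the 2 libraries, of which 300 were at least 2-fold higher in the combination and 294 lower. At 137 of the higher loci and 214 of the lower ones the value in the other library was listed at 0. The short RNA genes SNORD12 and SNORD21, both listed at 0 in the combination, are among the lower loci. Of all 300 higher and 294 lower loci, 62 and 31 carry the authors' significance call in the deposited table. The pseudogene GOLGA2P5, which was singled out after its values were seen, had 0.830 FPKM in the combination, 1.20 in MC_2580, 0.732 in RA 0.01 uM, 0.675 in RA 1 uM and 557 in DMSO, so that DMSO alone stood apart from the other 4 libraries.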
